A study of Mus musculus with 6 samples.

Results

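HL-1 is an immortalized line of beating mouse cardiomyocytes that was established from an atrial tumour of a transgenic mouse, in which the promoter of the atrial natriuretic factor gene drove a viral large T antigen. The transcriptome described here is that of HL-1 cells to which no hyaluronan had been added, chosen as the 2 samples titled untreated out of 6 in the series. The other 4 samples were HL-1 cells given 6-mer oligo hyaluronan or 1000 kDa hyaluronan (2 arrays each), and they entered only the scaling between arrays. Per the labels the cells were cultured in Claycomb medium. Per the study's methods the line was maintained in that medium with serum and norepinephrine, on fibronectin and gelatin, while its culture experiments used a period without serum, and whether the cells of these arrays had such a period is not given in the sources used here. HL-1 is a single line, and the labels do not say whether replicates 1 and 2 came from separate cultures, so the spread between them may be technical. RNA of each sample was hybridised to Illumina MouseRef-8 beads, and both untreated arrays lay on the same chip as the treated ones, at positions F and G.

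Atrial cardiomyocytes contract through a sarcomere of thick myosin and thin actin filaments, and they release the calcium that triggers contraction from the sarcoplasmic reticulum, which a calcium pump then refills. They differ from ventricular cells in their myosin light chains and in secreting natriuretic peptides. Postnatal cardiomyocytes in the heart have largely left the cell cycle and burn mostly fatty acids, whereas a line kept in culture must divide. Which of these genes gave a signal in untreated HL-1 cells, and which genes of other cell types did, is described from the detection p-value of each probe. That value is the share of negative control beads that were at least as bright, so a small value means a signal above the array's own background.

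Of 25697 probes, 5763 had a detection p-value under 0.05 on replicate 1 and 5449 on replicate 2. On both arrays 4564 probes were detected, which is 17.8% of all probes, and 19049 were detected on neither. Counted by gene, 3666 of 16593 genes (22.1%) had 1 or more probes detected on both arrays, 1572 were detected on a single array only, and 11355 on neither. A gene is called detected below when at least 1 of its probes passed on both arrays. Its level is that of its brightest detected probe, given as the deposited bead intensity on each array or as log2 intensity after background correction and normalization, as mean ± SD over the 2 arrays. Detected probes ranged from 4.73 to 14.99 on that log2 scale, with a median of 6.06. Because every probe binds with its own strength, levels order the probes on the array and not the amounts of different transcripts.

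The 2 arrays ranked the detected probes nearly alike. Over the 4564 probes detected on both, Pearson's r was 0.991 and Spearman's rho 0.964, both across probes, which are not independent replicates. The median absolute log2 difference between the arrays was 0.16, and 90% of these probes differed by less than 0.40. Replicate 1 was the brighter array before normalization, by a median of 0.28 on the log2 scale, and the first intensity of most pairs given below is therefore the higher. After normalization, 3 detected probes differed by more than 1, all higher on replicate 1, for the small nuclear RNA gene Rnu6, the endoplasmic reticulum chaperone Calr and the protein kinase A catalytic subunit Prkacb. Prkacb had intensities of 244 and 113. The largest difference in the other direction was 0.84, for the phosphatase Ppm1m.

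**Figure D1:**
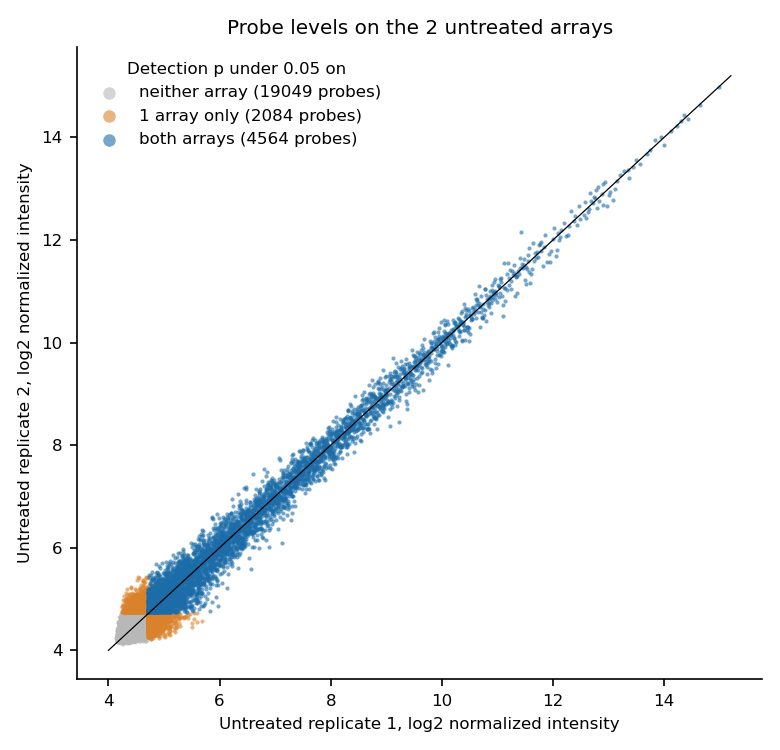
Log2 normalized intensity of every probe on untreated replicate 1 (x axis) against untreated replicate 2 (y axis), coloured by whether the detection p-value was under 0.05 on both arrays, on 1 array only or on neither; the line marks equal levels. The 4564 probes detected on both arrays lie along the line, while the others sit below a level of about 6 and scatter around it.

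Lists of genes that nearly all cells use and of genes known mainly from the nose set the scale for reading these calls. The latter were 1199 olfactory and vomeronasal receptor genes, of which 30 (2.50%) were detected on both arrays, at log2 levels from 4.73 to 5.53. Whether any of these 30 signals came from real transcript was not tested. At the other end, 48 of 59 cytosolic ribosomal protein genes and 12 of 14 housekeeping genes were detected, but so were only 20 of 40 proteasome genes. Psmb2, a catalytic-core subunit, had intensities of 7355 and 5789, while Psma1, which every proteasome core needs, lay at 56.4 and 55.6 and was not detected. A gene that was not detected can therefore not be read as a gene without transcript, and a detected gene whose level is under 5.53 lies where receptor genes of the nose are also found. The other lists were written by hand with earlier results of these data known, so each share describes that list only.

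**Figure D2:**
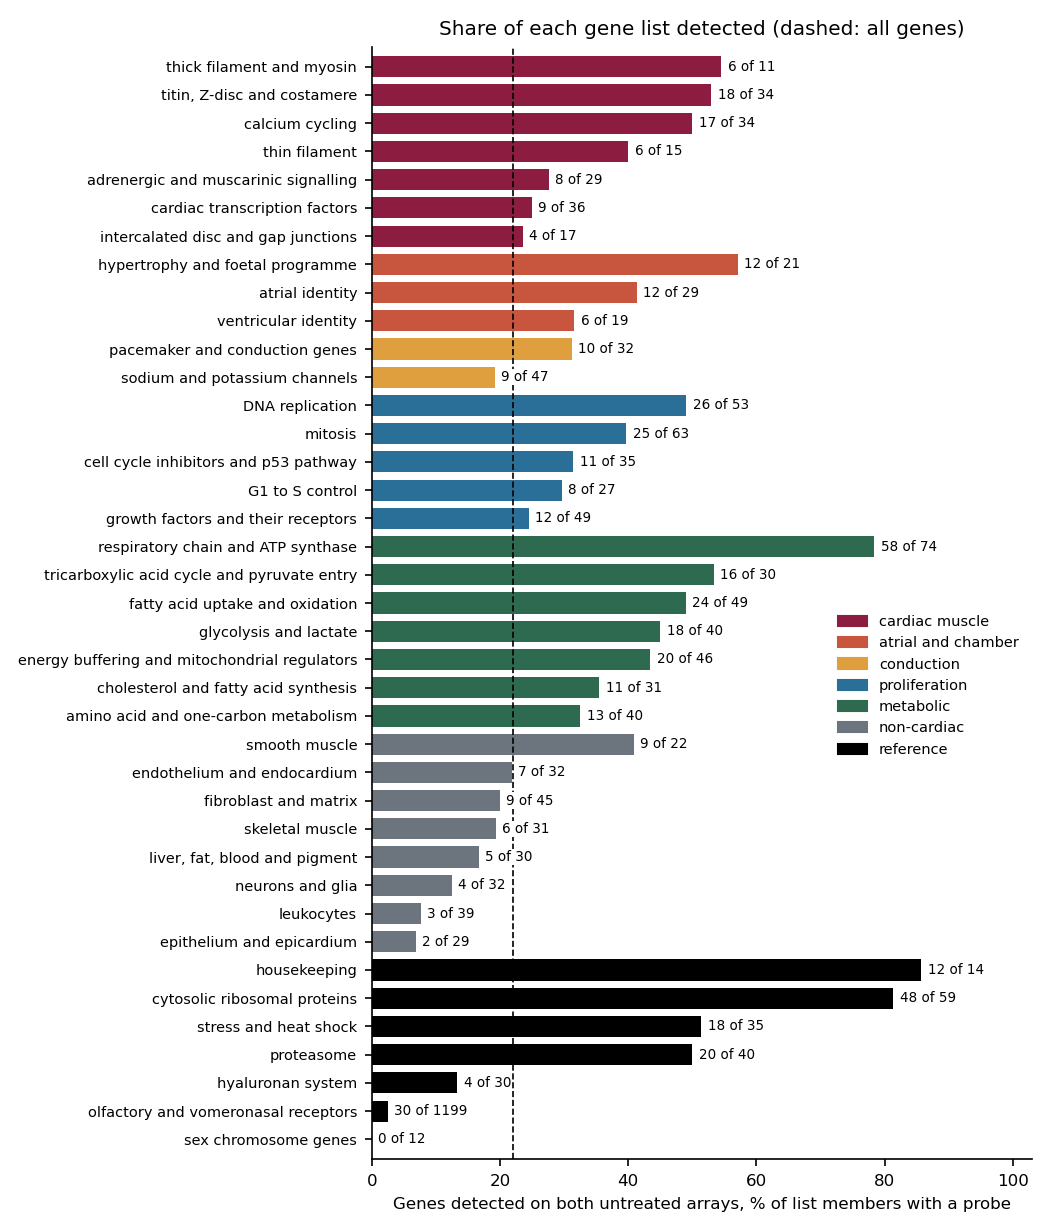
Share of the genes of each list that were detected on both untreated arrays (x axis, percent of the list's genes with a probe), with the counts beside each bar and colours for the class of the list; the dashed line marks the 22.1% over all genes. Respiratory chain, ribosomal and housekeeping genes reach furthest, and leukocyte, epithelial and nasal receptor genes lie far to the left of the line.

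The brightest signals came from genes for protein synthesis and mitochondrial respiration. Rplp1 and Rps2, both ribosomal proteins, led with intensities of 39095 and 35695 and of 29703 and 29240. Cox6b1, a subunit of cytochrome c oxidase, followed with 26460 and 21042, ahead of the ribosomal protein Rpl23a and of Actb, the cytoskeletal actin, with 22508 and 19968. Next in order came Dbi, which carries acyl-CoA, Rps13, the cytokine Mif, the secreted glutathione peroxidase Gpx3, and Etfb, which passes electrons from fatty acid oxidation to the respiratory chain. The other 20 of the 30 brightest genes were Cox6a1, Uqcr10, Mfge8, Ndufc1, Cox6a2, Rpl36al, Tubb5, Ldha, Taldo1, Eef1a2, Atox1, Aprt, Atp5b, Tufm, Gapdh, Eif3d, Rps19, Rps6, Eef1b2 and Rps4x. Among them Cox6a2 is the form of its subunit found in heart and skeletal muscle, and it was detected with Cox6a1, the form of most other tissues, at 12444 and 10900 against 15362 and 11332 for Cox6a1. Eef1a2 is likewise the elongation factor form of muscle and nerve, and had 9278 and 9119. Within the 100 brightest of 16593 genes lay 15 of 73 genes for ribosomal proteins. So did 12 of 93 genes for the respiratory chain and ATP synthase, including their assembly or regulation. The 30 brightest probes, 3 of them without a gene symbol, carried 22.1% and 24.7% of the background-corrected signal of replicates 1 and 2.

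**Figure D3:**
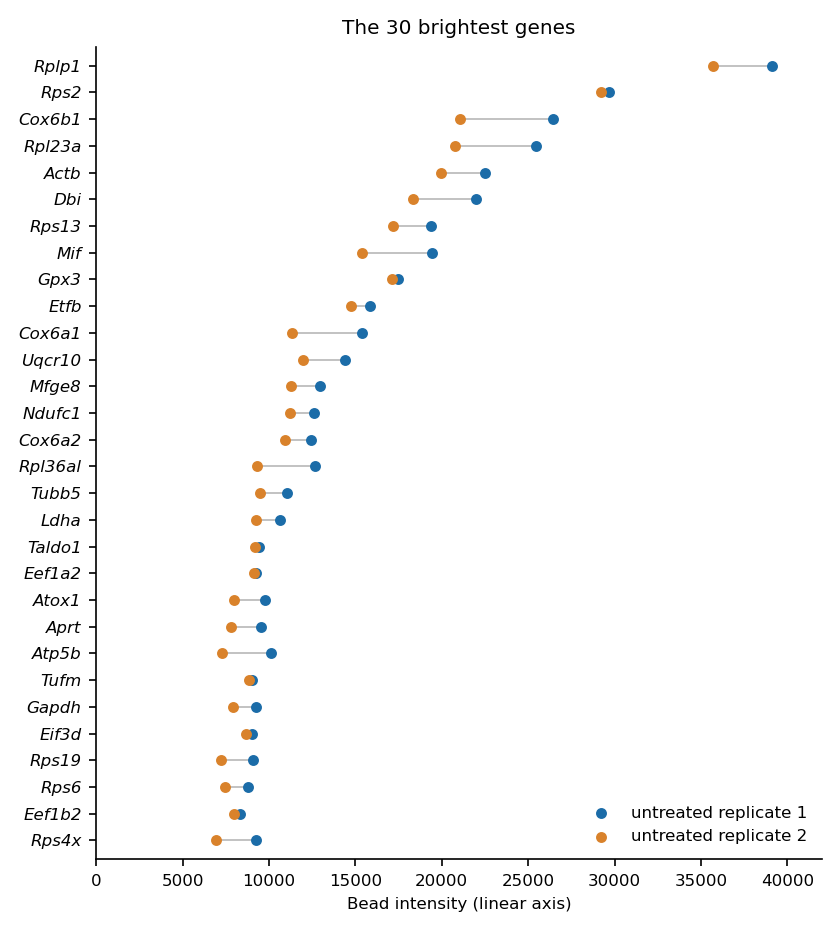
Bead intensity (x axis, linear scale) of the 30 brightest genes on untreated replicate 1 (blue) and replicate 2 (orange), ordered by their mean normalized level. Rplp1 stands at the top with 39095 and 35695 and Rps4x at the bottom with 9265 and 6935.

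The label of the cells was checked first on Myl4, Nppa, Atp2a2 and Nkx2-5, and all 4 were detected on both arrays. Myl4, the atrial essential myosin light chain, had intensities of 4906 and 3097 and ranked 64th of the 3666 detected genes. Atp2a2, the calcium pump of the sarcoplasmic reticulum, had 3847 and 2437 and ranked 89th. Nppa, the atrial natriuretic peptide, was much dimmer at 265 and 181, and Nkx2-5, a transcription factor that heart cells need from early development on, had 123 and 100. The panel thus spanned log2 levels from 5.83 ± 0.00 for Nkx2-5 to 11.73 ± 0.24 for Myl4 (SD, n = 2), all above the nasal receptor range. Whole cultures were measured, so fewer cells with a transcript and less of it per cell cannot be told apart in any of these levels.

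The promoters of 5 genes are shown because they cover the panel, the brightest muscle actin and the brightest gene with an entry in the RefSeq promoter table (build GRCm38.p6). Each run holds the 250 bases before and the 50 bases after the annotated start, 5′ to 3′ on the gene's strand, with every CG and every TATAAA of either strand in capitals. CG-rich promoters are typical of genes that most tissues use, and a TATA box is more often found at tissue-restricted genes. The table has no entry used here for Atp2a2. The Myl4 promoter lies at chr11:104550413-104550712 (plus strand).
Myl4: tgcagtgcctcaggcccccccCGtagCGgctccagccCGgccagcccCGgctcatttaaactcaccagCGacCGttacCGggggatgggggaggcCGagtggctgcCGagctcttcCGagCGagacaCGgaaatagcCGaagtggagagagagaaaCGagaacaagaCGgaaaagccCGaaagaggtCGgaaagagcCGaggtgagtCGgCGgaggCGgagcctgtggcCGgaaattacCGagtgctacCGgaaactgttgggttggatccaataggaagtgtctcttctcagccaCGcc
The Nppa promoter lies at chr4:148000472-148000771 (plus strand).
Nppa: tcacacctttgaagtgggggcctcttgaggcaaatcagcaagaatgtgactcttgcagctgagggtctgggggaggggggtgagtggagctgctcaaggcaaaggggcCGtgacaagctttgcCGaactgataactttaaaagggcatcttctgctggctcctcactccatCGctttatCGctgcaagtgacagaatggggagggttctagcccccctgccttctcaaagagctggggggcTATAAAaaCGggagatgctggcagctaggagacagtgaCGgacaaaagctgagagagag
The Nkx2-5 promoter lies at chr17:26841516-26841815 (minus strand).
Nkx2-5: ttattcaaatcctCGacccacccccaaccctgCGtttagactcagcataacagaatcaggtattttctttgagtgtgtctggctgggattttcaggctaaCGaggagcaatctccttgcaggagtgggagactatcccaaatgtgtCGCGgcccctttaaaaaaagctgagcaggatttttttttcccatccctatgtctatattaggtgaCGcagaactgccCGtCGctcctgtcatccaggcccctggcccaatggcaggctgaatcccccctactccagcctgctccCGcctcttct
The Acta2 promoter lies at chr19:34255324-34255623 (minus strand).
Acta2: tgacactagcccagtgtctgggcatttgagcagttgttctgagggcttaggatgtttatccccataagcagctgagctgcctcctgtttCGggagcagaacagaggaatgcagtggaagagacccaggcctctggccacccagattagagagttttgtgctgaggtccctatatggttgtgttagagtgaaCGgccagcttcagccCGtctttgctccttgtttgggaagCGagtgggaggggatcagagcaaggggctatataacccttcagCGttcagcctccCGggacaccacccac
The Rps2 promoter lies at chr17:24719813-24720112 (plus strand).
Rps2: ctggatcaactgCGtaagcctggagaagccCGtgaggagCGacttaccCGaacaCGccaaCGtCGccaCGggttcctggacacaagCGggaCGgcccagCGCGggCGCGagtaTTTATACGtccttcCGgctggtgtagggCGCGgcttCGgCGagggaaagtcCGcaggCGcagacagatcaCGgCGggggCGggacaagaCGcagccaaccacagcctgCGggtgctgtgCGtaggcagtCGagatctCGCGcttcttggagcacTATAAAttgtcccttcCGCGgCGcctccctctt

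Myl4 carried 25 CG pairs in its window and Rps2 34, whereas Nppa and Acta2 carried 6 each and Nkx2-5 carried 9. TATAAA was found in the Nppa window from 9 to 4 bases before the annotated start, and at 2 places in that of Rps2, but not in the other 3 windows. Over the 27025 promoters of the table the median was 7 CG pairs, and 14.2% held TATAAA on either strand. The 3017 detected genes with an entry had a median of 21 CG pairs and TATAAA in 7.59%, against 14 pairs and 11.4% for the 8109 genes that were detected on neither array and are not nasal receptors. These are descriptions of letters in the windows, and no factor's binding was measured.

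Genes of the sarcomere ranged from very bright to not detected. The 7 cardiac muscle lists, which also cover calcium cycling, cell contacts, adrenergic signalling and transcription factors, held 176 genes, of which 68 (38.6%) were detected against 22.1% of all genes, and 48 lay above the nasal receptor range. Of the thick filament list 6 of 11 genes were detected and of the thin filament list 6 of 15. In the thick filament Myl4 stood beside Mybpc3, the cardiac myosin-binding protein C, with 2864 and 2129. Myl2 and Myl3, the ventricular light chains, were also detected, at 219 and 157 and at 160 and 116. Myh6, the fast alpha heavy chain of the adult mouse heart, reached 135 and 116 on its detected probe, while Myh7, the slow beta chain, gave 70.7 and 63.9 and was not detected on either array.

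In the thin filament Tnnc1, the calcium-binding troponin of heart and slow muscle, had 3340 and 2860, and Tpm1, alpha tropomyosin, 1098 and 861. Actc1, the cardiac actin, was dimmer at 230 and 163. Tnni3, the inhibitory troponin of the adult heart, passed on replicate 1 alone, with 76.5 and 61.7. Of the Z-disc and costamere list 18 of 34 genes (52.9%, against 22.1% of all genes) were detected, all 5 defining members among them. Csrp3, the muscle LIM protein, had 2560 and 1877 and Actn2, the Z-disc crosslinker alpha-actinin, 1252 and 866. Ttn, the giant spring of the sarcomere, had 202 and 125, and Tcap and Ldb3, which sit at the Z-disc, had log2 levels of 5.61 ± 0.07 and 5.68 ± 0.10 (SD, n = 2). Further bright members were Fhl1, a LIM protein that binds titin (3651 and 3010), the dystroglycan gene Dag1 (1950 and 1373) and Des, the intermediate filament desmin (532 and 475).

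Calcium handling genes were detected unevenly. In this list 17 of 34 genes (50%, against 22.1% of all genes) passed, but of 5 defining members only Atp2a2 did. Next to it were Fkbp1a, a small protein that binds calcium release channels (2374 and 1776), S100a1, a calcium sensor of heart muscle (999 and 643), Rrad, a brake on calcium channels (836 and 612), Calm3, a calmodulin gene (699 and 490), and Slc8a1, the sodium-calcium exchanger (483 and 348). Sln, the small inhibitor of the calcium pump in atrial cells, had 235 and 187. Pln, the corresponding inhibitor of ventricular cells, gave 66.7 and 61.1 and was not detected. The same held for Ryr2, the calcium release channel (66.0 and 61.4), Casq2, the calcium buffer of the reticulum (63.6 and 63.1), and all 4 probes of Cacna1c, the L-type calcium channel.

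The lists on atrial and chamber genes together held 66 genes, of which 28 (42.4%) were detected against 22.1% of all genes. Of 29 atrial identity genes 12 (41.4%) were detected on both arrays, among them all 5 defining members. Besides Myl4, Nppa and Sln these were Myl7, the atrial regulatory light chain, with only 108 and 84.1, and Gja5, the gap junction protein connexin of atrium and conduction system, with 76.5 and 78.1. Both lay inside the nasal receptor range, with Gja5 at 4.95 ± 0.18 and Myl7 at 5.46 ± 0.17 (SD, n = 2), and just 1 of 3 Gja5 probes was detected. Furin, a protease that cuts peptide precursors, was the brightest member after Myl4 with 1251 and 839. Tbx5, needed for atrial and left ventricular cells, had 348 and 248, and Nr2f2, a nuclear receptor that marks atrial cells, 210 and 116. Nppb, the second natriuretic peptide, had 149 and 146. Not detected on either array were Kcnj3 and Kcnj5, which together form the acetylcholine-gated potassium channel of atrial cells, Kcna5, Nr2f1, Bmp10 and Fgf12, within 15 such members.

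The ventricular list gave 6 of 19 genes (31.6%, against 22.1% of all genes), among them 2 of its 4 defining members. These were the light chains Myl2 and Myl3, at log2 levels of 6.87 ± 0.07 and 6.24 ± 0.13 (SD, n = 2), both above the nasal receptor range. Ckmt2, the mitochondrial creatine kinase of muscle, was its brightest member with 2713 and 2202, and it is not restricted to ventricle. Rpl3l, a ribosomal protein form of heart and skeletal muscle, had 182 and 142. Irx4, a ventricular transcription factor, lay at 49.3 and 56.8, and with Hey2, Hand1, Kcnj2, Kcnj12, Pln and others it was among 11 members not detected on either array. Of the hypertrophy and foetal programme list 12 of 21 genes (57.1%) were detected. The brightest were Fhl1, Cdkn1a and the deubiquitinase Uchl1 (754 and 687), and Ankrd1, a stretch-responsive titin partner, had 289 and 188.

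Cardiac transcription factors were detected in 9 of 36 cases, a share of 25% that is close to the 22.1% of all genes. The brightest was Myocd, the coactivator of smooth and cardiac muscle genes, with 571 and 318. Tbx5 and Mef2c, at 245 and 139, came next among the defining members, followed by Nkx2-5. Gata6 passed narrowly at a log2 level of 4.77 ± 0.01 (SD, n = 2), while Gata4 gave 66.1 and 57.3 and did not pass. Hand1, Hand2, Mef2a, Mef2d, Mrtfa and Isl1 were also among the 26 factors that were detected on neither array.

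**Figure D4:**
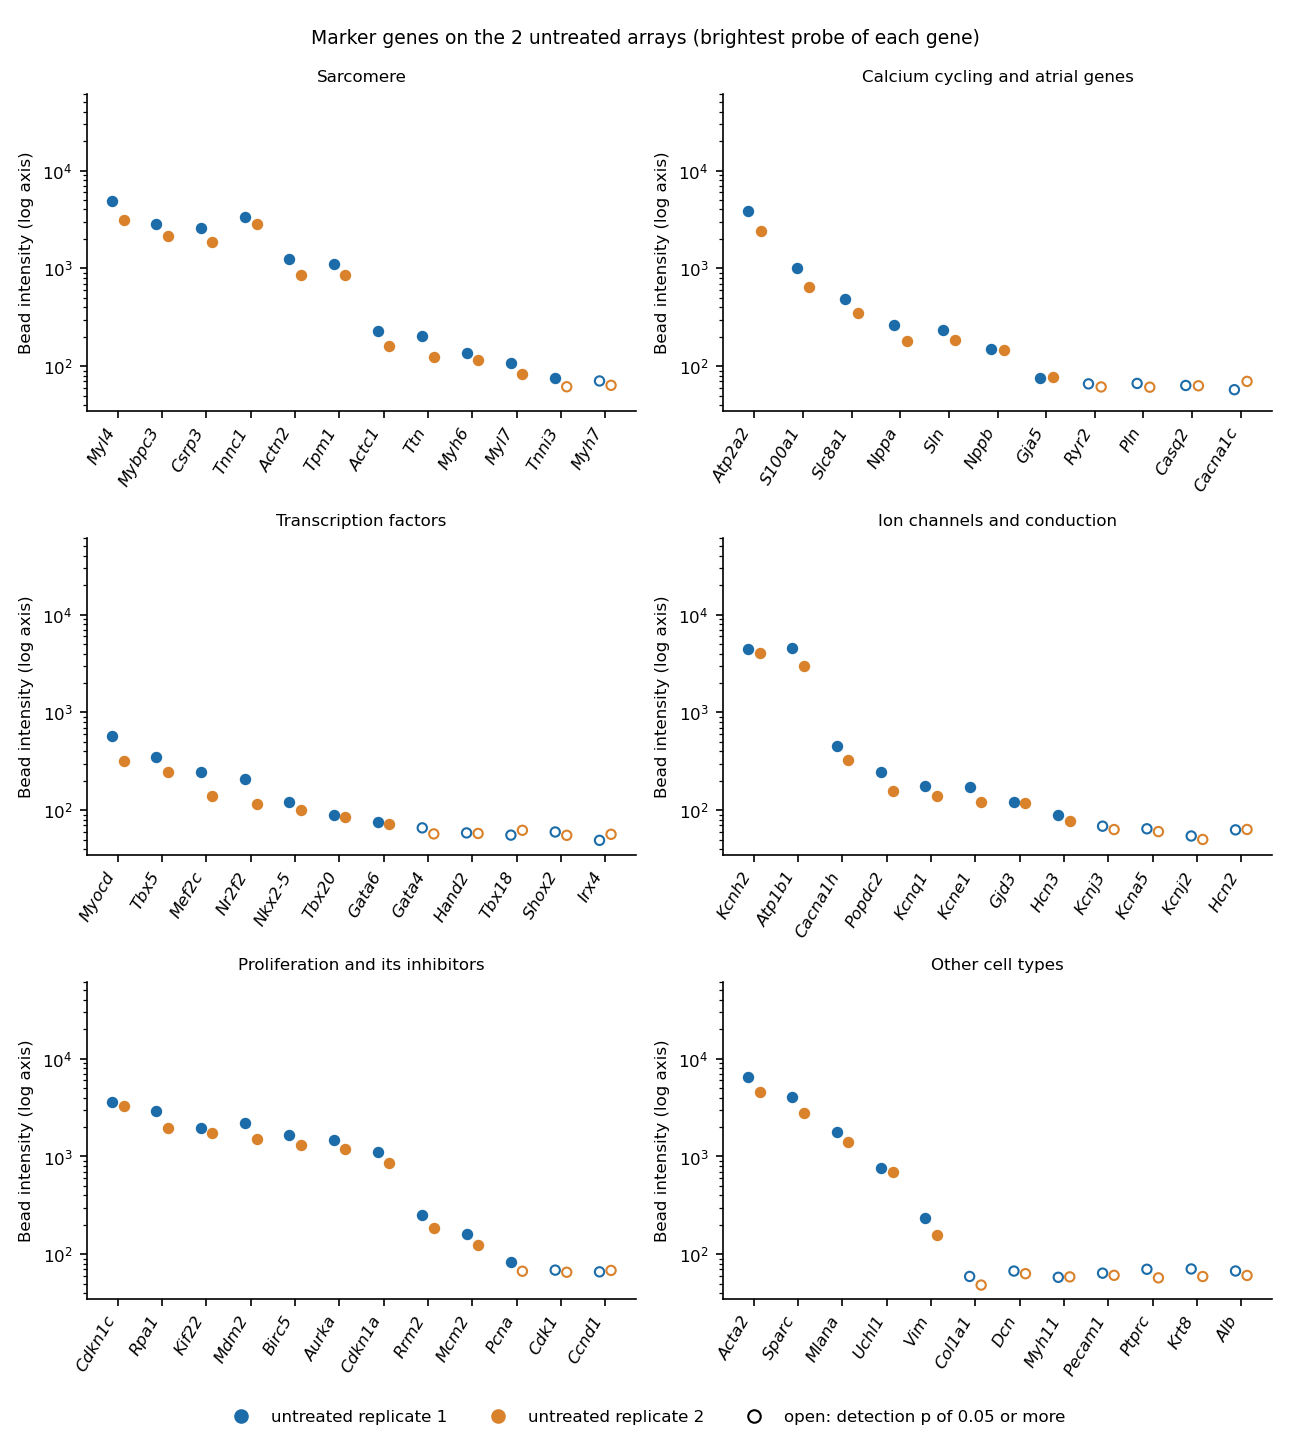
Bead intensity (y axis, log scale) of marker genes on untreated replicate 1 (blue) and replicate 2 (orange), in 6 panels by function; each point is the brightest detected probe of a gene, or its brightest probe where none was detected, and open points had a detection p-value of 0.05 or more. Open points gather between about 45 and 75, and the brightest markers, such as Acta2 with 6495 and 4562, lie far above them.

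Conduction and ion channel genes were detected about as often as genes in general, in 19 of 79 cases (24.1%). The exception in brightness was Kcnh2, the channel of the rapid delayed rectifier potassium current, with 4463 and 4056, ranked 57th of all detected genes, and with 2 of its 3 probes detected. Atp1b1, a subunit of the sodium pump, had 4583 and 2971. Kcnq1 and Kcne1, which together form the slow delayed rectifier, were dimmer at 179 and 140 and at 175 and 120. Kcnj2, the inward rectifier that holds the resting potential of ventricular cells, gave 54.6 and 50.3, and Kcna5, a channel of the ultrarapid delayed rectifier, 64.7 and 60.5, and neither was detected.

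Of 32 pacemaker and conduction genes 10 were detected (31.25%, against 22.1% of all genes), and none of the 3 defining members was. Tbx3 passed on replicate 1 alone (73.1 and 69.9), and Tbx18 and Shox2, the other regulators of sinus node identity, on neither array. The brightest member was Cacna1h, a T-type calcium channel, with 458 and 330. Popdc2, a membrane protein that binds cyclic AMP and is needed for steady pacemaking in mice, had 249 and 156, and Gjd3, a connexin, 122 and 118. Of the pacemaker channels Hcn3 was detected weakly (90.2 and 77.5) and Hcn2 was not (63.1 and 63.6).

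The intercalated disc list was detected in 4 of 17 cases (23.5%), close to the 22.1% of all genes. Pkp2, a desmosomal protein, had 347 and 234 and Ctnna1, alpha-catenin, 303 and 210, whereas Gja1, the main ventricular connexin, passed on replicate 1 only (81.3 and 67.5) and none of 4 probes of Cdh2, the cardiac cadherin, passed. In adrenergic and muscarinic signalling 8 of 29 genes (27.6%) were detected. Prkar1a, a regulatory subunit of protein kinase A, was the brightest with 570 and 384, and Chrm2, the muscarinic receptor of atrial cells, was weak at 82.8 and 80.9. The receptor Adra1b, to which norepinephrine can bind, gave 56.9 and 58.6 and was not detected.

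The 5 lists on proliferation, which also cover inhibitors, the p53 pathway, growth factors and receptors, held 227 genes, of which 82 (36.1%) were detected against 22.1% of all genes. The share was 49.1% for DNA replication, 39.7% for mitosis and 29.6% for entry into S phase. Among mitotic genes Kif22, a chromosome motor, had 1949 and 1721, Cdca3, which acts at mitotic entry, 1887 and 1547, Birc5, the survivin subunit of the chromosomal passenger complex, 1658 and 1297, Kif2c 1612 and 1236, and the kinase Aurka 1466 and 1185. All 3 probes of Birc5 and all 4 of Cdc20 were detected. The kinase Plk1 was dimmer with a log2 level of 5.80 ± 0.19 (SD, n = 2), and none of 3 probes of Cdk1, the central kinase of mitosis, was detected. In the mitosis list, 25 of 63 genes passed and 31 were detected on neither array, including Ccnb2, Bub1, Mad2l1, Ttk, Cenpe and Cenph.

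Of 53 DNA replication genes 26 were detected. Rpa1, which coats single-stranded DNA, had 2883 and 1971, Rfc2, a subunit of the clamp loader, 1447 and 1180, and Cdc45, part of the replicative helicase, 665 and 491. Rrm2, which makes deoxynucleotides, and Mcm2, another helicase subunit, were detected at 254 and 184 and at 162 and 125. Pcna, the sliding clamp, passed on replicate 1 alone (83.1 and 67.1), as did Mcm5, and Mcm3 passed on neither. In the list for entry into S phase 8 of 27 genes were detected, with the repressor E2f6 (616 and 435) and Ccnd3 (265 and 189) the brightest. Cdk2 and Ccne1 were detected, but Ccnd1 and Ccnd2, the other D-type cyclins, were not.

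Of 35 genes that inhibit the cell cycle or belong to the p53 pathway 11 (31.4%) were detected, and 20 were detected on neither array. Cdkn1c, which blocks cyclin-dependent kinases, had 3569 and 3316 and ranked 74th, above every replication and mitosis gene except Tubb5, the beta-tubulin on the mitosis list. Mdm2, the ubiquitin ligase that restrains p53 and is also its target, had 2209 and 1507, and Cdkn1a, the p53-induced kinase inhibitor, 1104 and 860, with 2 of 3 probes detected for each. Ccng1, another p53 target, had 911 and 613. Cdkn2a, which codes for an inhibitor and for a brake on Mdm2, passed on replicate 1 only, with log2 levels of 5.19 and 4.39. Among the other inhibitors Cdkn1b had 139 and 92.2 and Cdkn2c 123 and 96.5.

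Among growth factors and receptors 12 of 49 genes were detected (24.5%), close to the 22.1% of all genes. The adaptor Gab1 (349 and 215), the coreceptor Tgfbr3 (269 and 199) and the ligand Tgfb1 (212 and 198) were the brightest, and the insulin-like growth factor receptor Igf1r had 120 and 111. The platelet-derived growth factor receptors Pdgfra and Pdgfrb gave 57.5 and 50.1 and 64.5 and 60.8, and neither was detected.

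Metabolic genes had the highest share of the 6 classes of hand-written lists, with 160 of 309 detected (51.8%) against 22.1% of all genes. In the respiratory chain and ATP synthase 58 of 74 genes passed, and 7 were detected on neither array, among them Ndufs1 (55.7 and 62.9), a core subunit of complex I. The list for fatty acid uptake and oxidation also holds fat storage genes such as Dgat1 and Dgat2. Of its 49 genes 24 (49.0%) passed. Etfb and Etfa, the subunits of the electron transfer flavoprotein, were the brightest, Etfa with 5875 and 4275, and Acadm, the medium-chain dehydrogenase, had 1842 and 1438. Fabp3, the fatty acid carrier of heart, had 1270 and 768, and Cpt1b, the muscle gate for fatty acids into mitochondria, 137 and 123. Cpt2, a defining member, passed on replicate 2 only (70.4 and 74.4). Another 18 genes were detected on neither array, among them Cpt1a, Echs1 (60.4 and 57.2), Hadh (63.6 and 69.6) and Acat1 (51.4 and 49.4).

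For sugar, 18 of 40 glycolysis genes passed (45%, against 22.1% of all genes). Ldha, which makes lactate, had 10659 and 9268, Gapdh 9237 and 7910 and Tpi1 3586 and 2910, and all 3 probes of Pfkm, the muscle phosphofructokinase, were detected. Taldo1, of the pentose phosphate pathway, had 9449 and 9219. Pkm, pyruvate kinase, passed on replicate 1 only (74.8 and 65.2), and the glucose transporters Slc2a1 and Slc2a3 on neither array. Of 30 genes of the tricarboxylic acid cycle and pyruvate entry 16 (53.3%) passed, but only 7 of them lay above the nasal receptor range. Ogdh, a dehydrogenase of the cycle, and Pdha1, of the pyruvate dehydrogenase complex, were bright at 2417 and 1537 and at 1788 and 1277, and Cs, citrate synthase, gave 65.0 and 64.5 and was not detected.

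Muscle's energy buffers were split. Ckmt2 and Ckmt1, the mitochondrial creatine kinases, were bright, Ckmt1 with 1308 and 1274, and Ckb, the brain form, was weak at 93.2 and 80.8. Ckm, the cytosolic form of muscle, gave 71.7 and 67.2 and was not detected, and Mb, myoglobin, passed on replicate 2 only (71.7 and 77.6). Among the regulators of mitochondrial genes, Esrra had 973 and 789, Nrf1 661 and 554 and the coactivator Ppargc1b 392 and 309, while its relative Ppargc1a gave 64.8 and 65.0 and was not detected. Cholesterol and fatty acid synthesis was detected in 11 of 31 cases (35.5%, against 22.1% of all genes). Fdps (2538 and 2022) and Mvd (892 and 661) of the mevalonate pathway led. Fasn and Scd1, which make and desaturate fatty acids, were not detected. Of 40 genes of amino acid and one-carbon metabolism 13 (32.5%) passed, none of them a defining member. Srm, which makes spermidine, led at 748 and 495, and the serine synthesis genes Phgdh and Psat1 were not detected.

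Marker genes of other cell types were detected in 45 of 260 cases (17.3%), below the 22.1% of all genes, and 23 lay above the nasal receptor range. The smooth muscle list had the highest share of these, with 9 of 22, but Des, Myocd, Tpm2 and Fhl1 among the 9 also stand on the cardiac muscle lists. Acta2, smooth muscle actin, which immature cardiomyocytes also make, had 6495 and 4562, ranked 46th of all detected genes, and had all 4 probes detected. Csrp2, a LIM protein of smooth muscle, had 4579 and 3607, Smtn, smoothelin, 650 and 450, and Tagln, an actin-binding protein, 176 and 133. Myh11 and Cnn1, the myosin and calponin that define mature smooth muscle, gave 58.2 and 58.8 and 67.5 and 65.0, and neither was detected.

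Of 45 fibroblast and matrix genes 9 (20%) were detected, close to the 22.1% of all genes, and none was a defining member. Col1a1, Col1a2, Dcn, Pdgfra and Tcf21 were at background on both arrays, with 59.4 and 48.5 for Col1a1. The bright members were Sparc, a matrix protein that many cells secrete (4043 and 2777), the basement membrane proteoglycan Hspg2 (1126 and 784) and the protease Mmp14 (573 and 426). Vim, the intermediate filament vimentin, had 237 and 158. Skeletal muscle gave 6 of 31 genes (19.4%), also close to the share of all genes, with none of 5 defining members passing. Its brightest, Eno3 (1091 and 793) and Cav3 (484 and 389), are also made by heart muscle.

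Endothelial genes were detected in 7 of 32 cases (21.9%), about the share of all genes. Pecam1, Cdh5, Kdr and Emcn, which define endothelium, were not detected, and Tek, the single defining member that was, had 80.3 and 82.9, inside the nasal receptor range. Egfl7, a secreted vessel factor, was bright at 518 and 460 and Plvap had 199 and 156. Leukocytes gave 3 of 39 genes, Cd3e, Coro1a and Lcp1, all inside that range, and Ptprc, the common leukocyte antigen, was not detected (70.3 and 57.4). Epithelial and epicardial genes gave 2 of 29, with Krt8, Krt18, Wt1 and Cdh1 not detected. Among neuronal and glial genes 4 of 32 passed, and only Uchl1 was bright. Of liver, fat, blood and pigment genes 5 of 30 passed, with Mlana, a protein of pigment cells, standing apart at 1783 and 1399 while Tyr, the pigment enzyme, gave 64.2 and 63.4 and was not detected.

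Against 22.1% of all genes, 4 of 30 genes that make, cut or bind hyaluronan (13.3%) were detected in these cells without added hyaluronan. They were the lysosomal enzyme Gusb (1010 and 778), the cell surface hyaluronidase Cemip2 (666 and 440), Hyal2 (110 and 88.7) and Hexa (81.5 and 76.2). Of the synthases, Has1 gave 57.5 and 63.1 and Has2 68.6 and 57.3, and neither was detected, while Has3 passed on replicate 1 only (73.0 and 64.6). Each synthase was read by 1 probe. By real-time PCR the study reports Has2, but no Has1, in its cultures of cardiomyocytes and fibroblasts, controls included. It also reports Has3, in cardiomyocytes given the growth factor PDGF-BB and in fibroblasts given the growth factor TGFB2. Among the receptors Cd44 passed on replicate 1 only, on 1 of 6 probes (83.6 and 70.1), and Hmmr on neither array.

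Probes of the same gene often disagreed, which bounds what a single probe can show. Of 4777 genes with several probes 1671 had at least 1 detected on both arrays, and 243 had all of them detected. Actb had 5 probes, of which the brightest read 22508 and 19968 and the dimmest, which was not detected, 54.2 and 58.4. Acta2 and Atp2a2 had all probes detected, but the second Atp2a2 probe read 137 and 116 where the first read 3847 and 2437. Of 49 defining genes with several probes, 19 had both detected and undetected ones.

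**Figure D5:**
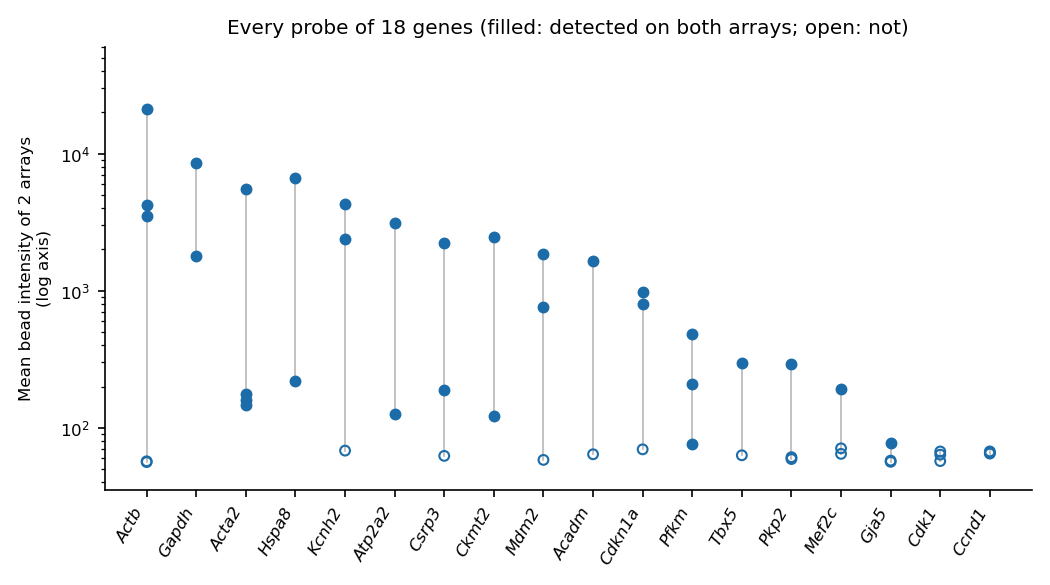
Mean bead intensity of the 2 untreated arrays (y axis, log scale) for every probe of 18 genes (x axis); filled points were detected on both arrays and open points were not, and a line joins the probes of a gene. The probes of Actb span the whole scale, and all 3 probes of Cdk1 and of Ccnd1 lie at background.

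At the threshold itself the calls turned on small differences. Just inside were Terb1, Tsx and Uhrf1, each with a detection p-value of 0.0489 on replicate 1, and just outside were 4930451I11Rik, Ak3 and Arl3, each with 0.0501 on 1 array. Uhrf1, a replication gene, had intensities of 72.9 and 79.2, and Ak3, a mitochondrial adenylate kinase, 72.7 and 79.0. These 2 genes fell on either side of the call with nearly equal signals. Of 12 sex chromosome genes none was detected on both arrays, the X-linked Kdm5c, Kdm6a and Eif2s3x included, although these are used in most cells, and Ddx3x and Zfy1 passed on replicate 1 only.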

How the data were processed

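Total RNA of 2 untreated HL-1 samples was read on Illumina MouseRef-8 beads. The authors deposited bead intensity per probe, before normalization, from BeadStudio 3.3 (submitters' processing notes), with a detection p-value, the bead number and the bead standard error. A second deposited table holds intensity values that the authors normalized by cubic spline in BeadStudio; 38.1% of its values are below 0, and which background was subtracted is not given in the sources used here.

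Intensities were background-corrected with neqc of limma 3.58.1 in R 4.3.3 (offset 16, control intensities derived by neqc from those p-values), quantile-normalized over all 6 arrays and put on the log2 scale. Quantile normalization gives probes of equal rank equal values, so an SD near 0 at the bright end reflects rank. The procedure was tested on simulated data, which modelled neither several probes per gene nor signal from other transcripts. Of 25697 probes, 23978 had 1 gene symbol and 1719 had none here. Names came from the platform annotation, updated through gene IDs. Gene lists were written by hand: 169 of 1480 entries had no named probe here and were not analysed.

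With 1 group and 2 arrays no test was made. The median number of beads per probe was 41 on each array, and precision is limited by having 2 arrays.

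Named genes were the 30 brightest, the defining members of each list, up to 6 further detected members (brightest first) and up to 6 undetected ones in list order, the 4 marker genes, the extremes of the difference between arrays and the genes next to the threshold; any others were chosen after their values were seen. The members and lists were chosen with earlier results of these data known. Promoter windows came from RefSeq. Alternatives were stricter or looser detection, single arrays, other rules for several probes, and other background and normalization settings.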

Additional observations from a re-analysis of the deposited data

How the results depend on the processing

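Detection counts by the other rules were within 1.5 times the reported ones apart from the following. Requiring the authors' normalized signal to be over 50 on both arrays left 2274 probes, 1884 genes, 38 cardiac muscle, 10 conduction, 45 proliferation, 95 metabolic and 22 non-cardiac genes. Requiring every probe of a gene to be detected left 2238 genes, of which 37 cardiac muscle, 17 atrial and chamber, 11 conduction, 46 proliferation and 26 non-cardiac genes. Accepting detection on 1 array gave 69 non-cardiac genes. An alternative chosen after seeing the data, a level above every detected nasal receptor, left 2858 probes, 2336 genes, 12 conduction and 23 non-cardiac genes. On single arrays 5449 to 5763 probes, 4387 to 4554 genes, 78 to 83 cardiac muscle and 53 to 61 non-cardiac genes passed. Without normalization between arrays the median difference between them was 0.40. Of the 30 brightest genes, 28 to 29 stayed under the other rankings and single arrays. The level of detected probes shifted by a median of 0.76 on the log2 scale with no background correction and 0.60 with an offset of 50, both over 1.5-fold, by 0.24 when the 2 untreated arrays were normalized alone, by 0.22 without normalization between arrays, and by -0.31 with the authors' normalized values. No paired analysis was possible because a single group was described and no test was made. With 2 arrays, no outlier or difference test was run, and probes near the threshold depend on the control beads of each array.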

Other observations

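Stress and chaperone genes, which the lists above leave out, were detected in 18 of 35 cases (51.4%), against 22.1% of all genes. Of these 18 genes 7 lay above the nasal receptor range. The constitutive chaperone Hspa8 had intensities of 7768 and 5416 and the peroxide-reducing enzyme Gpx1 9018 and 6471, whereas Hmox1, which heme and oxidants induce, gave 45.2 and 52.9 and was not detected. Several secreted proteins, named after their values were seen, stood among the brightest genes: Gpx3 with 17464 and 17129, Mif with 19446 and 15371, and Mfge8, a bridge between dying cells and phagocytes, with 12955 and 11290. Genes of translation factors were detected in 27 of 58 cases and tubulins in 5 of 20, the latter close to the 22.1% of all genes.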
